A study of Macaca fascicularis with 6 samples.

Results

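The genes described here are 10 transcription factors that mark where in the body a skeletal cell arose, and the list was given as *PITX1*, *TBX4*, *TBX5*, *TBX15*, *SHOX2*, *LMX1B*, *BARX1*, *NKX3-2*, *PAX1* and *PAX9*. The list names the genes and sets no threshold on their values, and it was drawn up with earlier results of these data known. Of the 10, 9 had a row in the matrix of 4 samples, which lists 14020 genes, and 8 had one in the matrix of cyiPSC and pre-transplant cyiPS-Cart, which lists 13950 genes. *PITX1* had no row in either matrix and *NKX3-2* had none in the matrix with cyiPSC, so no value can be given for them there.

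The single-cell transcriptomes were read by TAS-Seq, in which cDNA held on BD Rhapsody beads is extended with a terminator-assisted TdT reaction and amplified whole. The 5 kinds of material came from the cynomolgus monkey, and each was taken as 1 sample in all that follows. Undifferentiated iPS cells (cyiPSC) and the cartilage organoids grown from them (pre-transplant cyiPS-Cart) stand for the culture, organoids that had been placed in knee cartilage defects and retrieved stand for the graft (post-transplant cyiPS-Cart), and intact articular cartilage (cyAC) and the scar of unfilled defects (cyFT) stand for the knee itself. The question for these genes is whether cartilage made from iPS cells carries the same positional genes as cartilage of the knee.

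The cyiPSCs are of 1 line, carry EGFP at the AAVS1 locus and were kept on mouse embryonic fibroblast feeders, so the organoids before and after transplantation share that line and transgene. The post-transplant sample is labelled wild type, as are cyAC and cyFT, while the methods describe its cells as coming from the EGFP donor organoids. The 3 joint samples came from wild-type monkeys aged 3 to 4 years, 4 months after surgery by the labels. The defects lay in the trochlea of the distal femur, a hindlimb site, and material from the transplanted sites of a monkey was combined. The methods describe several monkeys per group, and which cells came from which monkey is not given in the sources used here.

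As background, *PITX1* and *TBX4* are switched on in the hindlimb bud and *TBX5* in the forelimb bud, where the T-box factors start limb outgrowth. *SHOX2* shapes the proximal limb skeleton, *TBX15* the size of limb and scapular elements, and *LMX1B* gives the dorsal limb, knee and patella included, its identity. *PAX1*, *PAX9* and *NKX3-2* act in the sclerotome, the part of the somite that builds the vertebral column, and *BARX1* is known from facial mesenchyme, stomach and developing joints. *PAX1* also acts in the shoulder girdle and pharyngeal pouches, *PAX9* in teeth and pharyngeal pouches, and *NKX3-2* in early chondrocytes of limbs and axis alike, so no gene of the list stands for 1 place alone.

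The cells were sequenced as 3 libraries, of which 1 held cyiPSC with pre-transplant cyiPS-Cart, 1 the grafted organoids alone and 1 cyAC with cyFT. A difference between samples of different libraries and a difference between the libraries cannot be told apart. The matrix of 4 samples held 320 cells of each, and the median depth was 58413.5 reads per cell before and 80335.5 after transplantation, 29699 in cyAC and 27499.5 in cyFT. The other matrix held 2500 cyiPSCs (median 143075 reads) and 3527 pre-transplant cells (median 59249), and 300 of the 320 pre-transplant cells of the first matrix are among these 3527. Values are the percentage of cells in which a gene had any read and CPM, the reads of a gene per 1000000 reads summed over the sample. Intervals are 95% intervals, exact binomial for shares, exact Poisson for CPM and exact conditional for ratios of CPM. For a gene read in no cell, the limit given is the share or level of 3 counts in that sample. Intervals and limits cover counting error only, and those of CPM and its ratios treat each read as independent. They are too narrow, since 1 molecule can give several reads and a few cells can hold most reads of a gene. Each share was also taken after every cell was thinned at random to 12191 reads. Reads of at least 3 of 8 chondrocyte markers were seen in 99.7% of pre-transplant, 100% of post-transplant, 100% of cyAC and 96.2% of cyFT cells, against 2.44% of cyiPSCs. At least 3 of 8 fibroblast markers were read in 99.4%, 98.8%, 83.8% and 93.1% of the same samples' cells, so these counts set the cyiPSCs apart but not cartilage from fibrous tissue. At least 3 of the 7 listed pluripotency markers were read in 94.0% of cyiPSCs and in no cell of the 3 joint samples. With 1 sample per condition no test between conditions was possible.

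*TBX4*, the T-box factor of the hindlimb, had reads in every sample, and the share of cells with a read was highest in cyiPSC, while at equal depth the intervals of cyiPSC and the knee tissues overlapped. It was read in 63 of 320 cyAC cells (19.7%, 15.5 to 24.5), 57 of 320 cyFT cells (17.8%, 13.8 to 22.5) and 70 of 320 post-transplant cells (21.9%, 17.5 to 26.8). In the library grown in culture it was read in 74 of 320 pre-transplant cells (23.1%, 18.6 to 28.1), 829 of the 3527 pre-transplant cells (23.5%, 22.1 to 24.9) and 1382 of 2500 cyiPSCs (55.3%, 53.3 to 57.2). The highest share was thus in the deepest and least differentiated cells. After thinning, the shares were 8.86% of cyiPSCs (7.78 to 10.0), 6.14% of the larger pre-transplant set (5.37 to 6.98), 6.58% of the smaller one (4.12 to 9.89), 8.12% of post-transplant cells (5.38 to 11.7), 9.74% of cyAC cells (6.67 to 13.6) and 11.5% of cyFT cells (8.02 to 15.7). The interval of cyiPSC, a cell type taken to lack limb patterning, overlaps those of the 3 joint samples and of the smaller pre-transplant set, and lies above that of the larger one. No sample's share at equal depth therefore shows *TBX4* above the level in cyiPSC, and the part of free RNA in these shares was not tested.

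The CPM and the number of reads in a cell gave another picture for *TBX4*. Its CPM was 7.64 (7.37 to 7.91) in cyiPSC, 6.90 (6.57 to 7.24) in the larger pre-transplant set and 6.997 (5.92 to 8.22) in the smaller one. It was 17.0 (15.6 to 18.6) in post-transplant cyiPS-Cart, 18.6 (16.2 to 21.2) in cyAC and 16.5 (14.2 to 19.1) in cyFT. The 3 joint samples were thus near one another, with a ratio of cyAC to post-transplant of 1.09 (0.929 to 1.28) and of cyAC to cyFT of 1.13 (0.922 to 1.38), both intervals holding 1. Post-transplant cyiPS-Cart stood 2.43-fold (2.02 to 2.94) above pre-transplant cyiPS-Cart and cyAC stood 2.66-fold (2.15 to 3.30) above it. Pre-transplant cyiPS-Cart was at 0.903 times (0.851 to 0.959) the level of cyiPSC by total reads, and above it by 0.46 on the log2 scale when edgeR's TMM factors were used.

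Cells with many *TBX4* reads held a larger part of its reads in the joint samples than in culture. A single read was all that 42.2% of the positive cyiPSCs and 53.1% of the positive cells of the larger pre-transplant set had, and the values were 37.1% in post-transplant cyiPS-Cart, 44.4% in cyAC and 42.1% in cyFT, so that this measure did not set cyAC and cyFT apart from cyiPSC. Cells with at least 10 *TBX4* reads were 5 of 2500 cyiPSCs (0.200%) and 10 of 3527 pre-transplant cells (0.284%), against 12 of 320 post-transplant cells (3.75%, 1.95 to 6.46), 6 of 320 cyAC cells (1.88%, 0.691 to 4.04) and 5 of 320 cyFT cells (1.56%, 0.509 to 3.61). The 12 post-transplant cells held 355 of the 508 *TBX4* reads of their sample (69.9%), and the highest of them alone held 70. Such cells held 41.4% of the *TBX4* reads in cyAC and 33.9% in cyFT, against 1.67% in cyiPSC and 8.87% in the larger pre-transplant set. At equal depth, at least 3 reads were seen in 0.201% of cyiPSCs (0.0652 to 0.467), 0.199% of the larger pre-transplant set (0.0800 to 0.409), 2.19% of post-transplant cells (0.884 to 4.45), 3.90% of cyAC cells (2.03 to 6.71) and 2.08% of cyFT cells (0.768 to 4.48). This minimum of 3 reads was chosen after the values were seen. The median number of reads per detected gene in the thinned cells was 3.42 in cyiPSC and 4.85 in the larger pre-transplant set, against 7.09, 6.68 and 6.38 in post-transplant cyiPS-Cart, cyAC and cyFT. More reads per gene thus moved with the result, and their part in it was not tested.

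**Figure D1:**
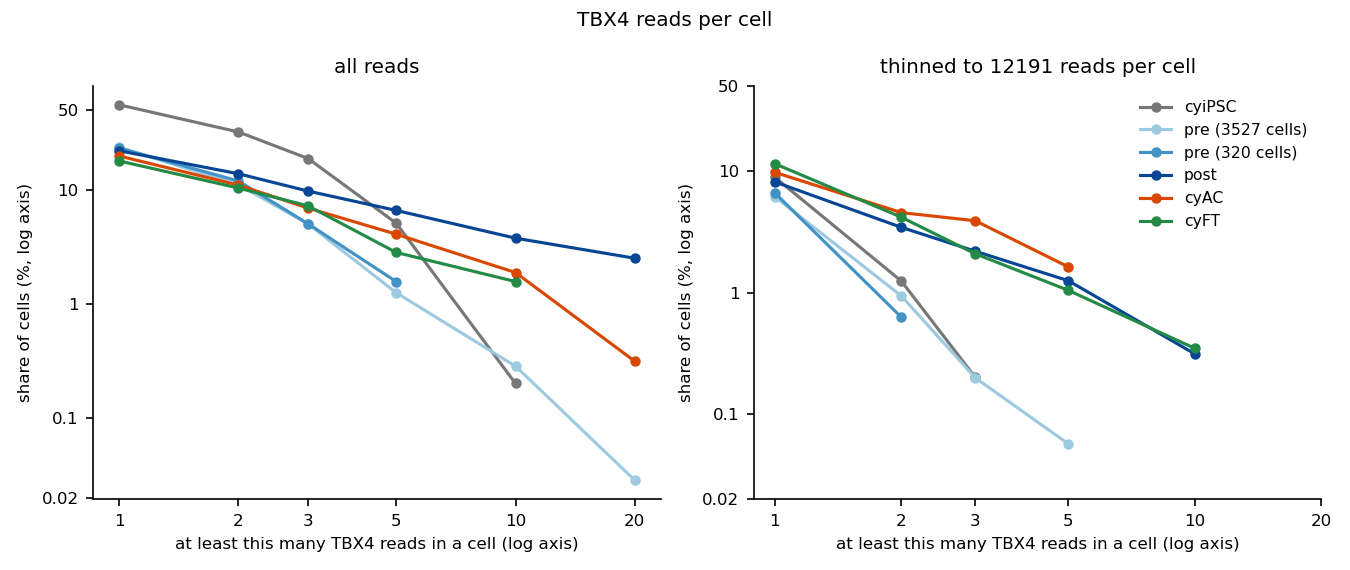
Share of cells (percent, log axis) with at least 1, 2, 3, 5, 10 or 20 *TBX4* reads (log axis), for each sample, with all reads at left and after thinning to 12191 reads per cell at right. Points at 0 are not drawn. With all reads, the cyiPSC line is highest at 1 read and drops to 0.200% at 10 reads, where post-transplant cyiPS-Cart is at 3.75%.

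*TBX5*, which opens forelimb outgrowth, and *TBX15* had reads in knee cartilage and fibrous tissue and in no post-transplant cell. *TBX5* was read in 9 of 320 cyAC cells (2.81%, 1.29 to 5.27), with 33 reads and 2.79 CPM, and in 7 of 320 cyFT cells (2.19%, 0.884 to 4.45), with 40 reads and 3.61 CPM. Reads were found in 5 of 2500 cyiPSCs (0.200%), 5 of 3527 pre-transplant cells (0.142%), and 0 of 320 pre-transplant and 0 of 320 post-transplant cells, each of which allows a share of up to 0.938%. The forelimb factor thus had reads in tissue of the hindlimb, at a ratio of cyAC to cyFT of 0.774 (0.473 to 1.26). Of the 9 cyAC cells with *TBX5*, 4 also held *TBX4*.

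*TBX15* was read in 14 of 320 cyAC cells (4.38%, 2.41 to 7.23), with 49 reads and 4.14 CPM (3.07 to 5.48). In cyFT it had reads in 17 of 320 cells (5.31%, 3.12 to 8.37), with 100 reads and 9.02 CPM (7.34 to 11.0). In the organoids it was read in 0 of 320 pre-transplant cells, 0 of 320 post-transplant cells and 2 of the 3527 pre-transplant cells, with 3 reads in all. cyiPSC had it in 17 of 2500 cells (0.680%, 0.397 to 1.09). The deepest joint sample was the one without a *TBX15* read, and the part of depth in these values was not tested. Against a floor of 3 reads in the whole sample, *TBX15* was at least 41.2-fold higher and *TBX5* at least 27.8-fold higher in cyAC than in post-transplant cyiPS-Cart, and at least 29.4-fold and 19.8-fold higher than in pre-transplant cyiPS-Cart. Against the larger pre-transplant set, which held reads, *TBX15* was 332-fold (107 to 1665) and *TBX5* 23.1-fold (13.6 to 39.5) higher in cyAC. The *TBX5* interval thus reaches below the bound of 19.8. These bounds and ratios set single samples of different libraries side by side. The authors removed genes read in very few cells, and 2704 of the 14020 listed genes are at 0 in post-transplant cyiPS-Cart, so a 0 can also be a gene dropped for that library.

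*SHOX2*, the factor of the proximal limb skeleton, was highest in the fibrous tissue. It was read in 26 of 320 cyFT cells (8.12%, 5.38 to 11.7) against 4 of 320 cyAC cells (1.25%, 0.342 to 3.17), samples of the same library, and the CPM was 10.0 (8.24 to 12.1) and 2.11 (1.37 to 3.12). The ratio of cyFT to cyAC was 4.74 (3.05 to 7.63), and after thinning the shares were 6.94% and 1.30%. One cyAC cell held 14 of the 25 cyAC reads. In the organoids *SHOX2* was read in 62 of the 3527 pre-transplant cells (1.76%, 1.35 to 2.25), 5 of the 320 (1.56%, 0.509 to 3.61) and 9 of 320 post-transplant cells (2.81%, 1.29 to 5.27), and in 15 of 2500 cyiPSCs (0.600%, 0.336 to 0.988). Its level in the larger pre-transplant set, 1.06 CPM, was 10.7-fold (7.71 to 15.3) that of cyiPSC, 0.0987 CPM, within 1 library. Post-transplant cyiPS-Cart, at 3.01 CPM, was 3.06-fold (1.88 to 5.18) above pre-transplant cyiPS-Cart. There 4 post-transplant cells held 73 of the 90 reads (81.1%), and the shares of cells overlap in their intervals. The ratio of cyAC to post-transplant cyiPS-Cart was 0.701 (0.431 to 1.10), whose interval holds 1.

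*LMX1B*, which sets the dorsal side of the limb, was rare in every sample. Reads were seen in 73 of 2500 cyiPSCs (2.92%, 2.30 to 3.66), 16 of 3527 pre-transplant cells (0.454%, 0.260 to 0.736), 0 of 320 pre-transplant, 0 of 320 post-transplant, 2 of 320 cyAC (4 reads) and 5 of 320 cyFT cells (18 reads, of which 10 in 1 cell). The cyiPSC share dropped to 0.441% (0.220 to 0.788) after thinning, where cyFT stood at 1.39% (0.380 to 3.52). By total reads *LMX1B* was 4.87-fold (3.40 to 7.17) higher in cyiPSC than in the larger pre-transplant set and 4.80-fold (1.58 to 19.5) higher in cyFT than in cyAC. No *LMX1B* read was seen in the grafted cartilage, at a limit of 0.938% of cells if the gene was not dropped for that library.

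**Figure D2:**
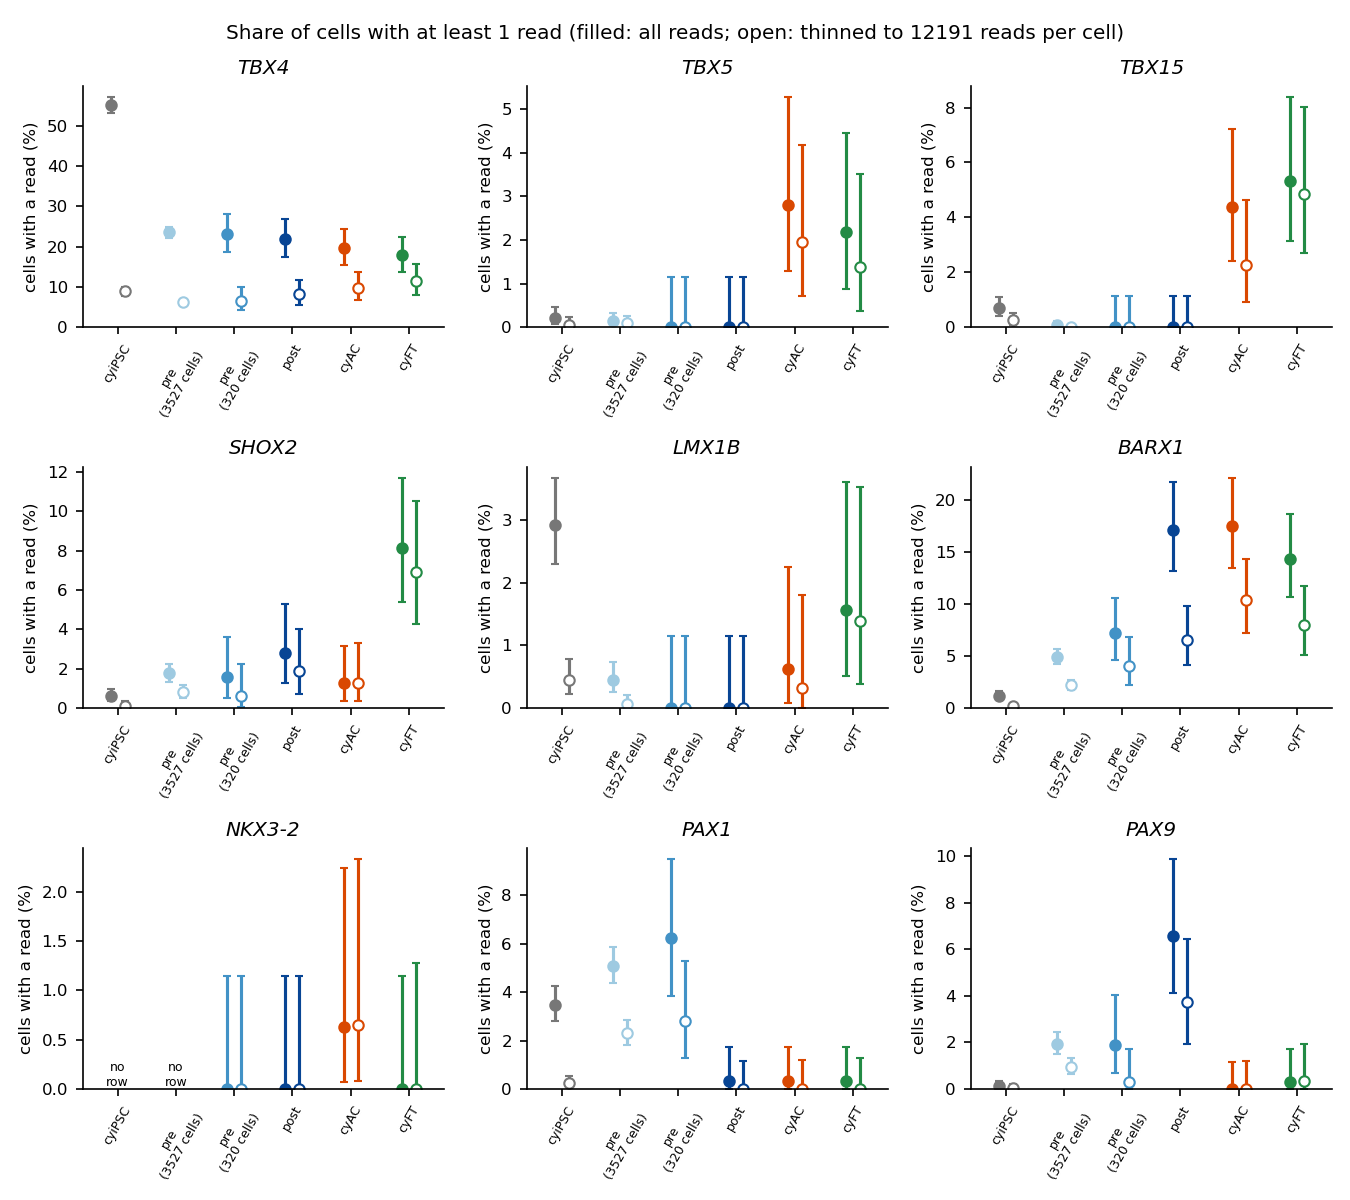
Percentage of cells with a read of each of the 9 genes with a row, by sample, with all reads (filled points) and after thinning to 12191 reads per cell (open points), and bars for the exact 95% binomial interval. *TBX5* and *TBX15* stand above 1% in cyAC and cyFT alone, *PAX1* above 1% with all reads in cyiPSC and the pre-transplant sets alone, and *PAX9* is highest in post-transplant cyiPS-Cart at 6.56%.

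*BARX1*, a homeobox gene of the face, stomach and joints, was the other gene of the list read in over 10% of the cells of all 3 joint samples. It was read in 56 of 320 cyAC cells (17.5%, 13.5 to 22.1), 46 of 320 cyFT cells (14.4%, 10.7 to 18.7) and 55 of 320 post-transplant cells (17.2%, 13.2 to 21.8). In culture it was read in 23 of 320 pre-transplant cells (7.19%, 4.61 to 10.6), 173 of the 3527 (4.91%, 4.22 to 5.67) and 28 of 2500 cyiPSCs (1.12%, 0.745 to 1.61). Unlike *TBX4*, the deepest cells had the lowest share. After thinning, the shares ran from 0.160% of cyiPSCs (0.0437 to 0.410) over 2.19% of the larger pre-transplant set (1.73 to 2.73) and 4.08% of the smaller one (2.19 to 6.87) to 6.56% of post-transplant (4.11 to 9.86), 7.99% of cyFT (5.13 to 11.7) and 10.4% of cyAC cells (7.22 to 14.3). The pre-transplant sets lie above cyiPSC of their own library, while the smaller set, post-transplant cyiPS-Cart and cyFT overlap in their intervals. The post-transplant interval also overlaps that of cyAC.

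By CPM, *BARX1* was at 0.207 (0.166 to 0.256) in cyiPSC, 2.41 (2.22 to 2.62) in the larger pre-transplant set and 3.66 (2.90 to 4.57) in the smaller one. It was at 7.90 (6.93 to 8.98) in post-transplant cyiPS-Cart, 12.6 (10.7 to 14.8) in cyAC and 14.1 (11.9 to 16.5) in cyFT. By CPM, though not by the share of cells after transplantation, the organoids thus lay between the iPS cells and the knee tissues. The larger pre-transplant set was 11.7-fold (9.28 to 14.8) above cyiPSC, post-transplant 2.16-fold (1.66 to 2.82) above the smaller and 3.28-fold (2.80 to 3.82) above the larger pre-transplant set, and cyAC 1.59-fold (1.29 to 1.97) above post-transplant cyiPS-Cart. cyAC and cyFT, from 1 library, were at a ratio of 0.896 (0.711 to 1.13), an interval that holds 1, and the direction turned with TMM factors. In the thinned cells the difference of post-transplant over pre-transplant cyiPS-Cart shrank from 0.93 to 0.29 on the log2 scale of CPM + 1.

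The sclerotome factors *PAX1* and *PAX9* had their highest levels in the organoids. *PAX1* was read in 179 of the 3527 pre-transplant cells (5.08%, 4.37 to 5.85) and 20 of the 320 (6.25%, 3.86 to 9.49), at 3.33 CPM (3.10 to 3.57) and 3.10 CPM (2.397 to 3.94). A single cell, with 1 read, held it in each of post-transplant cyiPS-Cart, cyAC and cyFT. cyiPSC had it in 87 of 2500 cells (3.48%, 2.80 to 4.28), but 73.6% of these held a single read and the CPM was 0.320 (0.268 to 0.379). At equal depth *PAX1* was read in 2.30% (1.83 to 2.85) of the larger pre-transplant set against 0.241% (0.0884 to 0.523) of cyiPSCs, and in 2.82% (1.30 to 5.29) of the smaller set against 0 of 320 post-transplant cells. The pre-transplant level was 10.4-fold (8.64 to 12.6) that of cyiPSC within their library. It was 92.5-fold (16.0 to 3710) that of post-transplant cyiPS-Cart and 36.7-fold (6.35 to 1469) that of cyAC, where the wide intervals come from the single read of the other sample. Markers of epithelial and neural cells were also lower after transplantation. At least 3 of the 5 listed ones were read in 9.69% of pre-transplant, 97.1% of cyiPSC and no post-transplant, cyAC or cyFT cells. Their summed level was 65.7 CPM before and 26.7 CPM after transplantation, where *EPCAM* and *PAX6* were at 0, and 29.9 CPM in cyAC and 27.7 CPM in cyFT. Their part in the difference of *PAX1* was not tested.

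*PAX9* had the opposite order between the organoids. It was read in 21 of 320 post-transplant cells (6.56%, 4.11 to 9.86) with 131 reads and 4.39 CPM (3.67 to 5.21). Before transplantation it was read in 6 of 320 cells (1.88%, 0.691 to 4.04) with 10 reads, and in 68 of the 3527 (1.93%, 1.50 to 2.44) with 302 reads and 1.26 CPM (1.12 to 1.41). The knee tissues all but lacked it, with 0 of 320 cyAC cells and 1 of 320 cyFT cells, which held 9 reads. cyiPSC had 3 of 2500 cells (0.120%). Post-transplant cyiPS-Cart was 9.34-fold (4.92 to 19.9) above the 10 reads of pre-transplant cyiPS-Cart in the same matrix but 3.49-fold (2.82 to 4.30) above the larger pre-transplant set. Against a floor of 3 reads it was at least 17.3-fold above cyAC. After thinning, *PAX9* was in 3.75% (1.95 to 6.46) of post-transplant cells against 0.313% (0.00794 to 1.73) and 0.938% (0.646 to 1.31) of the smaller and larger pre-transplant sets. The larger set was 47.5-fold (26.1 to 96.1) above cyiPSC of its library.

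*NKX3-2*, a target of sonic hedgehog in the sclerotome, was seen in 2 cyAC cells only, with 7 reads of which 6 in 1 cell, and was listed at 0 in cyFT and in the organoids before and after transplantation. A value resting on 2 cells does not separate the samples, since 0 of 320 cells allows a share of up to 0.938% and cyAC was at 0.625% (0.0758 to 2.24). That limit holds only where the gene was kept, and the matrix with cyiPSC has no *NKX3-2* row, so the pre-transplant 0 can stand for a dropped gene.

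**Figure D3:**
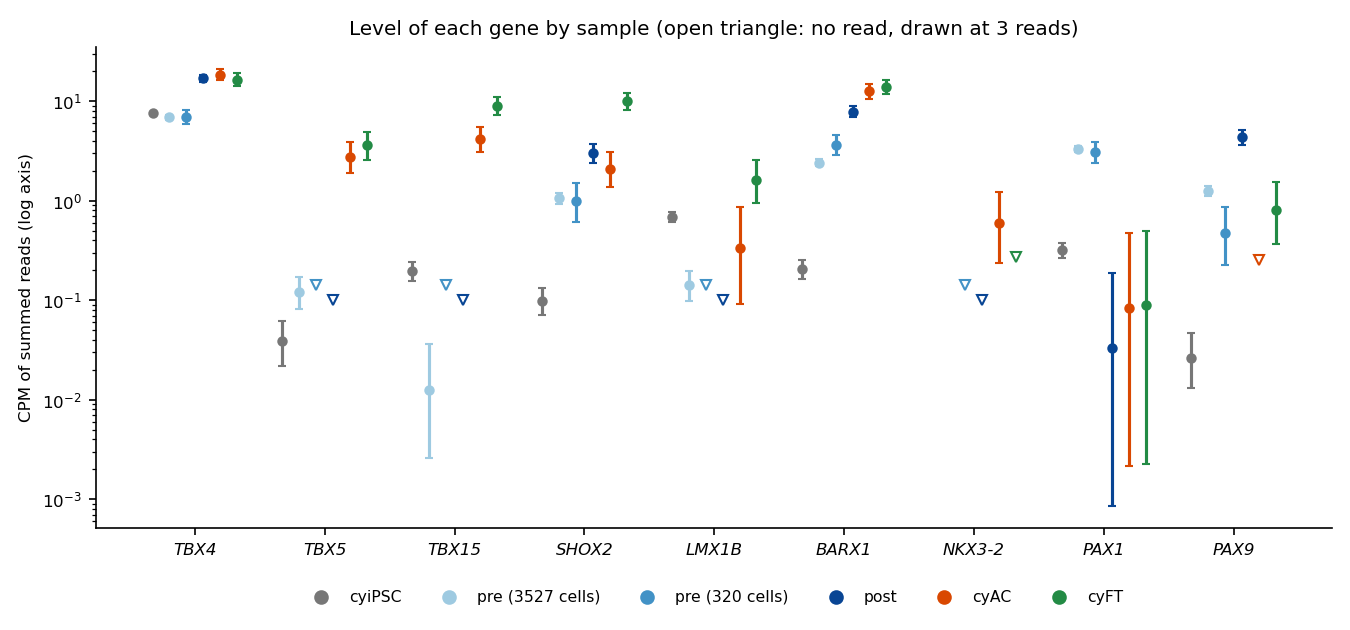
Level of each gene with a row (CPM of summed reads, log axis) by sample, with exact 95% Poisson bars, and open triangles at the level of 3 reads where a sample held none. Levels of different genes are not comparable, since transcript length was not taken into account. *TBX4* has its 3 joint samples between 16.5 and 18.6 CPM and the cultured ones between 6.90 and 7.64 CPM.

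Few members were common enough to be set against all genes. A gene was compared where at least 5% of the cells of either sample had a read, and was counted as past the fold at a 4-fold difference of CPM + 1. Between cyAC and post-transplant cyiPS-Cart, 3 members were compared and *PAX9* alone passed, higher in post-transplant cyiPS-Cart, where 2.19% of the 8960 genes compared passed in that direction. It was compared only because 6.56% of the deeper post-transplant cells had a read, against 0% of cyAC cells. A gene that enters in this way can be called only toward the sample where it was read. *PAX9* no longer passed with a pseudocount of 5 CPM, nor in thinned cells, where it was in too few cells to be compared. None passed toward cyAC, where 4.43% of genes did. *TBX15*, at a log2 ratio of 2.36, was past the fold but in too few cells to be compared, with 4.38% of cyAC and 0% of post-transplant cells.

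In the other comparisons no member passed with these settings, and *PAX1*, *PAX9* and *SHOX2*, which came near the line, passed under some of the other settings tried. Between cyAC and pre-transplant cyiPS-Cart, with 3 members compared, 4.19% of 9524 genes passed toward cyAC and 3.81% toward pre-transplant cyiPS-Cart, and *PAX1* came nearest at a log2 ratio of -1.92. Between post-transplant and pre-transplant cyiPS-Cart, with 4 members compared, 2.71% of 9498 genes passed toward post-transplant and 4.06% toward pre-transplant cyiPS-Cart. There *PAX1* reached -1.99 and *PAX9* 1.87. Between cyAC and cyFT, with 4 members compared, 0.718% of 8778 genes passed toward cyAC and 2.69% toward cyFT, and *SHOX2* reached -1.82. Between the larger pre-transplant set and cyiPSC, where only *TBX4* and *PAX1* were compared, 7.33% of 11021 genes passed toward pre-transplant cyiPS-Cart and 12.8% toward cyiPSC, and *PAX1* reached 1.71. With counts of 0 or 1 of so few genes, no share of the members can be set above or below these backgrounds.

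The scaling bears on these backgrounds. The median log2 ratio over all genes compared was -0.63 between the larger pre-transplant set and cyiPSC, and TMM factors moved it by 0.59. With them the share of calls that lay toward pre-transplant cyiPS-Cart went from 36.4% to 60.5% of all calls, the share toward post-transplant against pre-transplant cyiPS-Cart from 40.0% to 50.1%, and the share toward cyAC against cyFT from 21.1% to 31.3%. The median moved by 0.21 between post-transplant and pre-transplant cyiPS-Cart, by 0.18 between cyAC and cyFT, by 0.10 between cyAC and pre-transplant cyiPS-Cart and by -0.11 between cyAC and post-transplant cyiPS-Cart.

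Within samples, cells were split by reads of *COL2A1*, the main collagen of cartilage, and *COL1A1*, the main collagen of fibrous tissue. In cyFT the split set the members apart. *SHOX2* was read in 17 of 170 cells with *COL1A1* alone (10.0%, 5.93 to 15.5) and in 6 of 33 cells with both collagens (18.2%, 6.98 to 35.5), against 1 of 84 cells with *COL2A1* alone (1.19%, 0.0301 to 6.46). All 5 cyFT cells with *LMX1B* were among the 170, and none among the 84. *TBX4* and *BARX1* lay the other way, in 32.1% (22.4 to 43.2) and 31.0% (21.3 to 42.0) of the *COL2A1* cells against 12.4% (7.81 to 18.3) and 10.0% (5.93 to 15.5) of the *COL1A1* cells. The *COL2A1* cells were deeper, with a median of 47802.5 against 21830 reads, and at equal depth *TBX4* stood at 15.5% against 9.72% and *BARX1* at 13.1% against 7.64%, while *SHOX2* stood at 0% against 9.03%. *TBX15* was in 8.33% and 4.71% of them, with 5.95% and 5.56% after thinning. In cyFT cells with neither collagen *SHOX2* was in 2 of 33 (6.06%). Within 1 tissue *SHOX2* was thus read more often in cells with *COL1A1*, a gene that bone cells also express, than in cells with *COL2A1* alone, and the difference for *TBX4* and *BARX1* became smaller once depth was made equal.

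In the larger pre-transplant set the 2588 cells with *COL2A1* alone and the 254 with *COL1A1* alone had similar depth, with medians of 56355.5 and 53338 reads. *PAX1* was read in 5.91% (5.03 to 6.89) of the former and 0.787% (0.0955 to 2.82) of the latter, and *BARX1* in 5.83% (4.96 to 6.81) and 2.36% (0.872 to 5.07). *SHOX2* was again the reverse, at 1.08% (0.720 to 1.56) and 4.33% (2.18 to 7.62). *TBX4* did not differ beyond counting error, at 22.5% (20.9 to 24.2) and 21.7% (16.7 to 27.2). In post-transplant cyiPS-Cart, *PAX9* was in 15 of 265 cells with *COL2A1* alone (5.66%, 3.20 to 9.16) and 6 of 47 with both collagens (12.8%, 4.83 to 25.7), intervals that overlap. By *PRG4*, the lubricin gene of the joint surface, *PAX9* was in 7.05% (4.08 to 11.2) of 227 post-transplant cells with a read and 5.38% (1.77 to 12.1) of 93 without. In cyAC, *TBX5* was in 8 and *TBX15* in 9 of the 276 cells with *COL2A1* alone (2.90%, 1.26 to 5.63, and 3.26%, 1.50 to 6.10), and each was in 1 of the 16 with *COL1A1* alone. *TBX15* was also in 4 of the 25 cyAC cells with neither collagen (16.0%, 4.54 to 36.1). The authors zeroed counts they judged to have diffused, so a cell without *COL1A1* counts need not be one that lacked its reads.

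**Figure D4:**
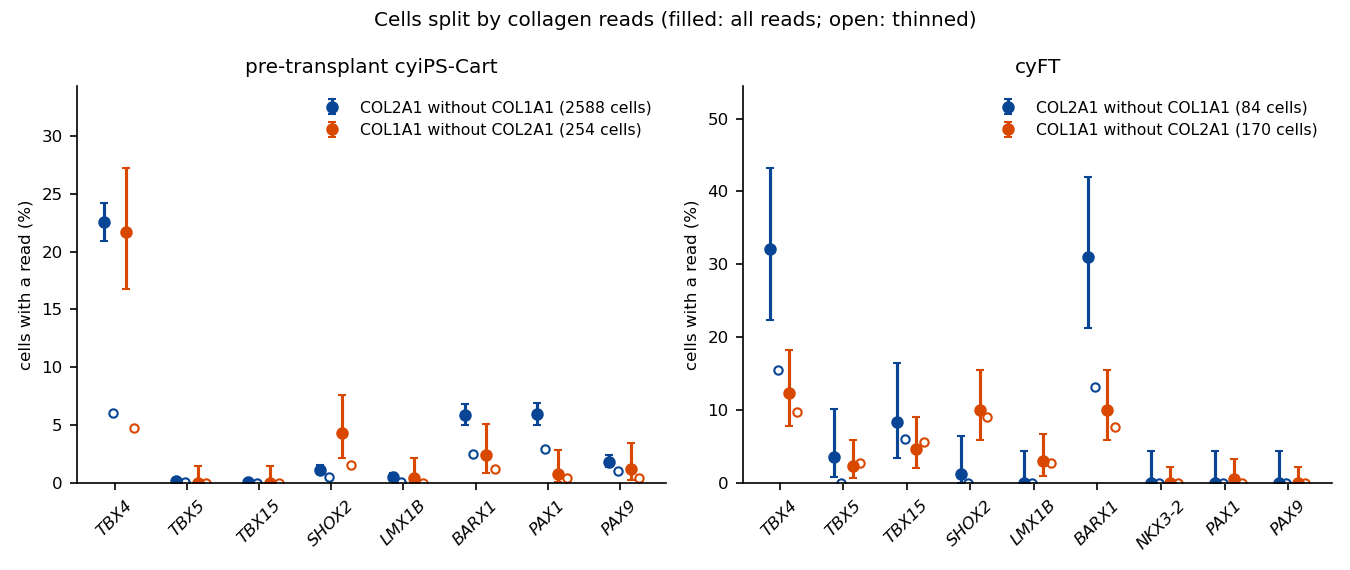
Share of cells with a read (percent) in cells with *COL2A1* without *COL1A1* reads (blue) and *COL1A1* without *COL2A1* reads (orange), in the larger pre-transplant set at left and cyFT at right, with all reads (filled points, exact 95% binomial bars) and after thinning to 12191 reads per cell (open points). *SHOX2* is higher in the *COL1A1* cells of both samples, and *PAX1* in the *COL2A1* cells of the pre-transplant set.

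Cells of other types in cyFT moved with its *SHOX2* level. All 6 listed bone markers had reads in cyFT, with a summed level of 1151 CPM against 58.7 in cyAC, and at least 3 of them were seen in 4.06% of cyFT cells and in no cyAC cell. Of the 7 listed immune markers, 6 had reads in cyFT, *CD3E* being at 0, with a summed level of 480 CPM against 39.3 in cyAC, and at least 3 were seen in 5.00% of cyFT and 0.625% of cyAC cells. The 8 fibroblast markers summed to 52215 CPM in cyFT and 16146 CPM in cyAC. Their sum was highest in post-transplant cyiPS-Cart, at 78994 CPM and with at least 3 of them in 98.8% of cells, where *SHOX2* was at 3.01 CPM, and it was 25870 CPM in pre-transplant cyiPS-Cart. Between cyAC and post-transplant cyiPS-Cart, 4 of the 8 were past the 4-fold line, higher after transplantation, where 2.19% of all genes passed, beside the differences of *PAX9*, *TBX5* and *TBX15*. The bone markers lay the other way, at 58.7 CPM in cyAC against 6.13 CPM in post-transplant cyiPS-Cart. The part of these cells and markers in the differences of the members was not tested.

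Most members were read in few cells, and cells with reads of more than 1 member were few in every sample. At least 1 of the listed members was read in 39.1% of cyAC, 42.8% of cyFT, 41.9% of post-transplant, 35.3% of pre-transplant and 58.7% of cyiPSC cells. Without *TBX4* these shares were 25.0%, 29.1%, 25.0%, 16.6% and 8.76%, so that the order of iPS cells and cartilage turned with 1 gene. All these shares are at unequal depth, and *TBX4* alone went from 55.3% to 8.86% of cyiPSCs after thinning. The order at equal depth was not taken. At least 2 members were read in 7.81% of cyAC, 6.25% of cyFT, 5.94% of post-transplant, 4.69% of pre-transplant and 5.44% of cyiPSC cells. In the 3 joint samples the most common pair was *TBX4* with *BARX1*, in 13 cyAC cells (20.6% of its *TBX4* cells and 23.2% of its *BARX1* cells), 10 cyFT cells and 11 post-transplant cells. These are also the members read in most cells there, with *BARX1* in 17.5% and *TBX4* in 19.7% of all cyAC cells. Whether any pair was more common than such shares give by themselves was not tested. In culture the most common pair was *TBX4* with *PAX1*, in 68 cells of the larger pre-transplant set, 8 of the smaller one and 55 cyiPSCs. *PAX1* and *PAX9* met in 4 cells of the larger pre-transplant set, which are 2.23% of its *PAX1* cells and 5.88% of its *PAX9* cells. Over all cells of that set *PAX9* was in 1.93% and *PAX1* in 5.08%. The cyAC cells with *BARX1* were the deeper ones, with a median of 39995.5 reads against 28204.5 in those without, and the part of depth in these pairs was not tested.

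No other gene reached the correlation with a member, from cell to cell, that was set for naming it. *TBX4* over the 320 cyAC cells and *BARX1* over the 320 cyFT cells, the samples where each had its highest CPM, were compared with all genes read in at least 10% of the cells, on log2(CPM + 1). The highest Pearson r was 0.262 for *TBX4* and 0.296 for *BARX1*, below the value of 0.3 set for naming a gene. With reads in only 19.7% and 14.4% of these cells, r is limited for any gene. The comparison therefore cannot show that no gene follows them. The other members were in under 10% of the cells of the sample where their CPM was highest.

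Other positional genes were taken from fixed lists, and a percentage in brackets after a count is the share of all genes compared that passed in the same direction. Of 28 limb patterning genes, 15 were common enough to compare between cyAC and post-transplant cyiPS-Cart, and 4 were past the 4-fold line, all higher in the organoids, where 2.19% of all genes compared passed. *MEIS1*, a homeobox gene of the proximal limb, was at 13.4 CPM and in 9.69% of post-transplant cells against 0.254 CPM and 0.625% of cyAC cells. *HAND2*, a gene of the posterior limb bud, was at 6.93 CPM and in 6.56% of post-transplant cells, and had no read in the 320 cyAC cells, which allows a share of up to 0.938%. The median log2 ratio of the 15 was -1.45, beside 0.06 over all 8960 genes compared. *MEIS1* and *HAND2* were compared only because enough post-transplant cells had a read, and these cells were deeper, with a median of 80335.5 against 29699 reads in cyAC. The direction of the 4 can therefore be partly set by the filter, and the part of depth in it was not tested. The median of the 15 also includes genes that entered through post-transplant cyiPS-Cart alone, so the same limit holds for its direction. It holds as well for genes of the other lists that entered through 1 sample alone. The other positional lists described below had medians of -0.88 (somite and sclerotome), -1.70 (lateral plate), -0.19 (cranial) and 0.62 (joint interzone). The fibroblast markers lay toward post-transplant cyiPS-Cart as well, with a median of -1.75, and their part in the median of the limb genes was not tested.

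Against pre-transplant cyiPS-Cart, 2 of 15 limb patterning genes were higher in cyAC (4.19% of all genes) and 2 lower (3.81%), with a median of -0.97 beside -0.17 over all genes. Fibroblast, pluripotency and epithelial and neural markers lay the same way, with medians of -0.51, -2.22 and -2.35. Immune, bone, endothelial and mural and muscle markers lay the other way, at 2.13, 1.71, 0.72 and 0.69. Their part was not tested. *DLX5*, which works in limb and bone formation, was at 11.8 CPM in cyAC against 0.704 CPM, and *OSR2*, a factor of synovial joint formation, at 32.0 against 6.06 CPM, while *MEIS1* was lower, at 0.254 against 17.6 CPM, and so was *PBX3*, a homeobox gene, at 18.4 against 97.4 CPM. Post-transplant cyiPS-Cart had 3 of 17 above pre-transplant cyiPS-Cart (2.71% of all genes) and none below (4.06%), with a median of 0.41 beside -0.22. The fibroblast markers moved the same way, with a median of 0.96, and their part was not tested. The medians of the other lists were 0.90 (somite and sclerotome), 1.76 (lateral plate), -1.13 (cranial) and -0.02 (joint interzone), so a shift upward was not particular to limb genes. Among the limb patterning genes *DLX5* led, at 22.2 against 0.704 CPM, before *HAND2* at 6.93 against 0.470 CPM. Between cyAC and cyFT 1 of 10 passed, toward cyFT (2.69%), *TBX3*, at 9.72 against 43.6 CPM. Between the larger pre-transplant set and cyiPSC 5 of 17 were higher in the organoids (7.33%) and 5 in cyiPSC (12.8%), led by *PRRX1*, a gene of limb mesenchyme, at 54.6 against 2.09 CPM and *PRRX2* at 78.9 against 6.50 CPM, and on the other side by *SALL4* at 2.96 against 117 CPM and *SALL1* at 1.40 against 62.5 CPM.

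Of 21 somite and sclerotome genes, 7 were compared between cyAC and post-transplant cyiPS-Cart and 1 passed, toward the organoids (2.19% of all genes), *MKX*, a tendon factor, at 0.338 against 19.5 CPM. Against pre-transplant cyiPS-Cart 2 of 8 were higher in cyAC (4.19%), *PTCH1*, the hedgehog receptor, at 33.4 against 1.36 CPM and *GLI1*, a transcription factor of hedgehog signalling, at 12.9 against 0.892 CPM, and 3 were lower (3.81%), led by *MKX* at 0.338 against 11.1 CPM and *SIX2* at 0.930 against 7.89 CPM. After transplantation 1 of 8 was higher than before (2.71%), *PTCH1* at 22.5 against 1.36 CPM, and 1 lower (4.06%), *SIX2* at 1.00 against 7.89 CPM. In the larger pre-transplant set 4 of 11 were above cyiPSC (7.33%), led by *FOXF2* at 15.9 against 0.655 CPM and *MKX* at 15.1 against 0.597 CPM, and *GLI1* was below it (12.8%) at 0.699 against 9.42 CPM. None of 4 passed between cyAC and cyFT.

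Of 10 joint interzone genes, 5 were compared between cyAC and post-transplant cyiPS-Cart and 2 passed, both higher in cyAC (4.43% of all genes). *GDF6*, a growth factor of joint formation, was at 36.1 against 0.268 CPM, and *NFATC1* at 139 against 15.7 CPM and in 61.9% against 18.4% of cells. *GDF6* was read in only 5.31% of cyAC cells, and was also above pre-transplant cyiPS-Cart (0.517 CPM) and cyFT (4.06 CPM). *NFATC1* was at 101 CPM before transplantation, where it was the only one of 4 past the fold against post-transplant cyiPS-Cart (4.06%). Against cyiPSC, 3 of 5 were higher in the larger pre-transplant set (7.33%), led by *ERG*, a gene of articular chondrocytes, at 75.1 against 1.21 CPM and *TRPS1* at 296 against 17.9 CPM, and *SFRP2* was lower (12.8%) at 29.0 against 161 CPM.

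Of 16 cranial genes, 3 were compared between cyAC and post-transplant cyiPS-Cart and *ETS1* passed, toward cyAC (4.43% of all genes), at 443 against 57.4 CPM, having been at 235 CPM before transplantation. Between cyAC and cyFT 2 of 4 passed, toward cyFT (2.69%), *DLX4* at 0.592 against 32.3 CPM and *DLX3* at 6.09 against 43.8 CPM. None of 4 passed between cyAC and pre-transplant cyiPS-Cart. Between the larger pre-transplant set and cyiPSC, 1 of 8 was higher in the organoids (7.33%), *ETS1* at 216 against 39.0 CPM, and 2 were lower (12.8%), *OTX2* at 2.84 against 161 CPM and *TFAP2A* at 0.728 against 38.2 CPM. Of 9 lateral plate genes at most 2 could be compared, and *BMP4* passed as 1 of 2 after transplantation (2.71%), at 9.78 against 1.22 CPM before, and as 1 of 2 toward cyiPSC (12.8%), at 33.7 CPM against 1.42 CPM in the larger pre-transplant set.

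**Figure D5:**
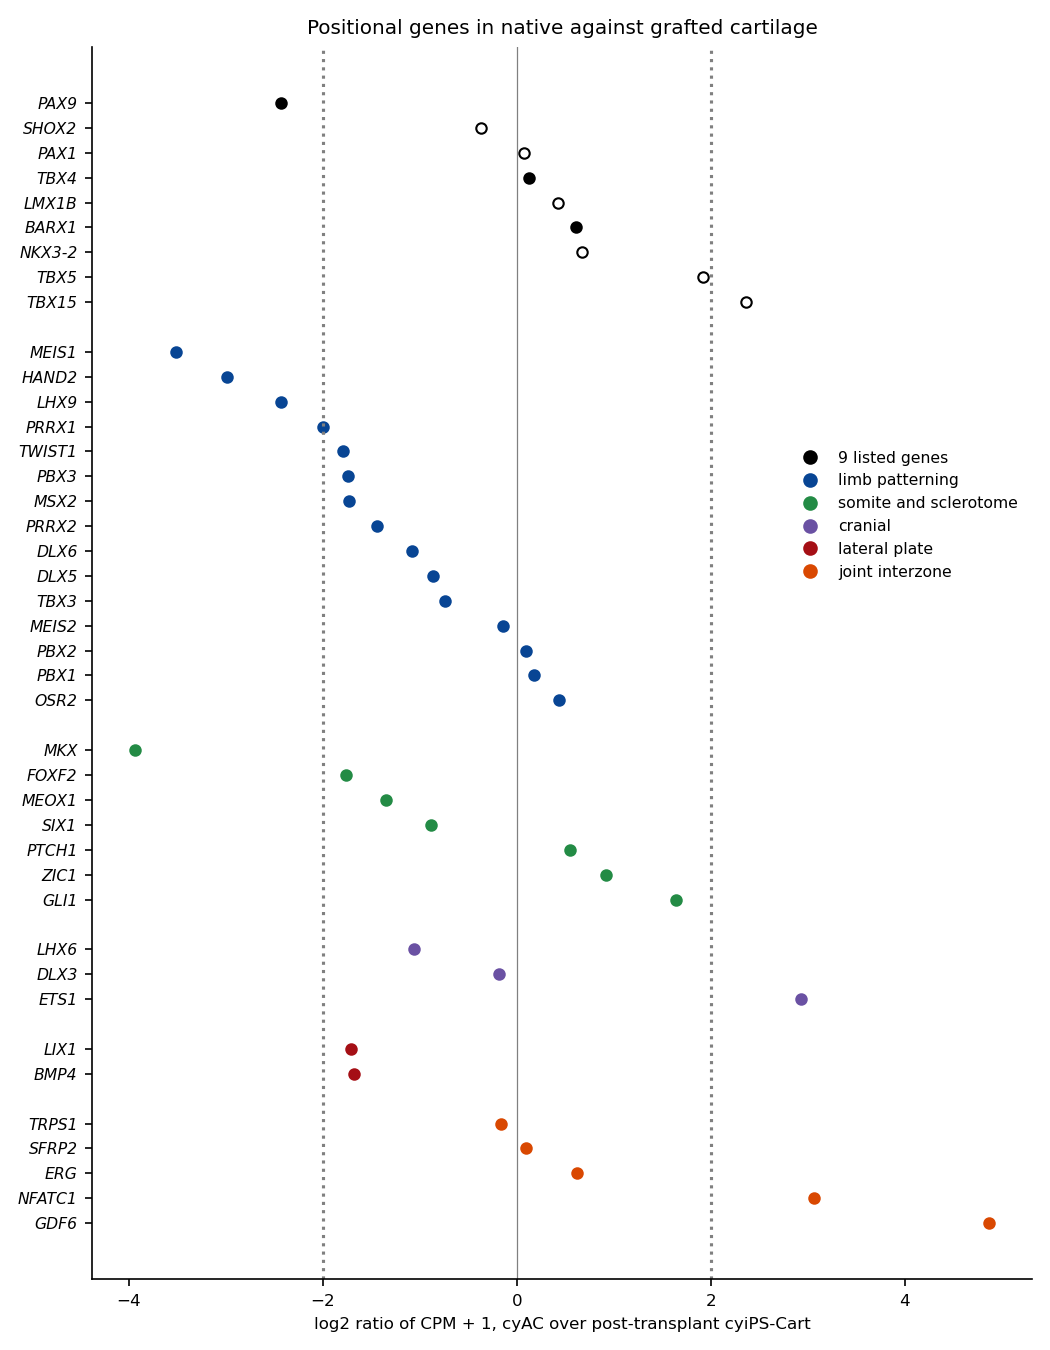
Log2 ratio of CPM + 1 of cyAC over post-transplant cyiPS-Cart for the 9 listed genes (black, open where read in under 5% of the cells of both) and for the genes of 5 positional lists that were common enough to compare (colours). Dotted lines mark 4-fold. *MKX* is lowest at -3.94 and *GDF6* highest at 4.87, while *TBX4* is at 0.12.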

How the data were processed

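The authors deposited whole-number read counts per gene and cell in 2 matrices, which were used without change. Per the labels and the study's methods, reads were trimmed with cutadapt 3.4 and assigned with Bowtie2 2.4.2 to Ensembl transcripts of the cynomolgus monkey, while the labels' build field names GRCh38, and R 3.6.3 was used. The authors kept cells above the knee plot's inflection, split pooled samples by their hashtags, zeroed counts they judged to have diffused from other cells in strongly expressed genes, filtered cells by mitochondrial share and, in the matrix of 4 samples, reduced each sample to 320 cells. Background removal and gene filtering can turn low counts into 0. Cells were taken to samples by the prefixes of their names, through the library names in the labels and the code supplied with the study. The 3 hashtag libraries were not used here.

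Reads were summed per sample to CPM over all listed genes (numpy 2.4.6, scipy 1.17.1). Cells were thinned to 12191 reads, the depth that 10% of cyFT cells do not reach, which left out 7 cyiPSCs, 8 cells of the larger pre-transplant set, 1 pre-transplant, 0 post-transplant, 12 cyAC and 32 cyFT cells. Log2 ratios used CPM + 1. The steps were tested on simulated counts. No cell number was shared within a library, 2 were shared between the culture and post-transplant libraries, and 4 between the culture and the cyAC and cyFT libraries. Doublets, called by scrublet (scanpy 1.11.5), were kept. It marked 14 of the 6027 culture cells, too few to be taken as working, 32 of 320 post-transplant cells and 2 each of cyAC and cyFT. Alternatives were edgeR 4.0.16 scaling factors, other pseudocounts, filters, minimum reads, thinning and the larger pre-transplant set.

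The members and the gene lists were chosen with earlier results of these data known. All members are named with their values. A gene of another list is named only where past the 4-fold line, at most the 2 largest per list and direction. Some genes of these lists are not reported here and were left out of the lists' counts. RefSeq's table for another assembly held all 10 symbols and was used for names only, so no coordinates or sequences are given.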

Additional observations from a re-analysis of the deposited data

How the results depend on the processing

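With 1 sample per condition, no result rests on a test. Over 10 counts of members past the 4-fold line, 134 alternative values were taken, of which 107 stayed within 1.5 times the reported count. Of 458 alternative log2 ratios of 44 member comparisons, 54 moved by more than the counting error of the ratio (0.5 where it had none), and no value past the line turned sign. Of 208 alternative shares of cells, 129 fell below the interval of the reported share, as thinning and a higher minimum of reads lower a share by construction. The reported counts are 1 for *PAX9* toward post-transplant cyiPS-Cart against cyAC and 0 elsewhere. The count of 1 went to 0 with a pseudocount of 5 CPM and in cells thinned to equal depth, where *PAX9* was at most in 3.75% of cells and no longer compared. Toward post-transplant against pre-transplant cyiPS-Cart it was 1 (*PAX9*) with TMM factors, median-of-ratios factors, a pseudocount of 0.1 CPM or without marked doublets, and 2 (*TBX4*, *PAX9*) at 2-fold. In the other direction it was 1 (*PAX1*) without mitochondrial genes, with a pseudocount of 0.1, with the larger pre-transplant set or at 2-fold. Toward the larger pre-transplant set against cyiPSC it was 1 (*PAX1*) with either set of factors, a pseudocount of 0.1 or at 2-fold. Toward cyFT against cyAC it was 1 (*SHOX2*) with a pseudocount of 0.1, the mean of per-cell CPM, thinning, without the cell with most reads or at 2-fold. Toward cyAC it was 1 (*TBX15*) against either organoid sample when genes in at least 1% of cells, or all genes with a read, were compared. Against pre-transplant cyiPS-Cart it was 2 (*TBX4*, *BARX1*) at 2-fold, and 1 (*PAX1*) in the other direction at 2-fold or a pseudocount of 0.1. Ratios near 1 changed sign in 9 of the 458 cases, among them *SHOX2* of cyAC over post-transplant cyiPS-Cart, from -0.37 to 0.04 without marked doublets, and *TBX4* of cyAC over cyFT, from 0.16 to -0.09 after thinning. No paired analysis was possible because each condition is 1 sample. At 320 cells a gene in under 0.938% of them can go unread, and the sources used here describe no removal of PCR copies.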
